A study of Homo sapiens with 6 samples.

Results

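The matrix metalloproteinases and the proteins that hold them in check are described here through 10 genes of the deposited count table, chosen by name: the enzymes MMP1, MMP2, MMP3, MMP13, MMP14 and MMP16, and the inhibitors TIMP1, TIMP2, TIMP3 and RECK. All 10 were found among its 61228 gene rows. Reads were abundant enough to test 7 of them. MMP2, MMP3 and MMP13 were too low to judge, with at most 7 reads in any library. The RNA came from MDA-MB-231, a human breast cancer line of the triple-negative type, kept inside droplets of collagen I gel. The KO group held 3 libraries of cells given Cas9 with guide RNAs against the ETS transcription factor genes ETV1, ETV4 and ETV5, and the control group held 3 libraries of cells given Cas9 with control guides. Both groups therefore carried Cas9 and passed through nucleofection, gel culture and release from the gel with collagenase. The KO titles name ETV4 only. The KO library names share the tag c39, and the labels do not say whether it marks a single clone, nor whether replicates were separate cultures, so the p-values below reflect the spread among these 6 libraries, and that spread may be technical. The protocol names gels of 1.2 and 2.4 mg/ml collagen without saying which was used for which library.

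Matrix metalloproteinases are zinc-dependent enzymes that cut the proteins of the extracellular matrix. MMP1 and MMP13 are secreted collagenases, MMP2 is a gelatinase, MMP3 is a stromelysin, and MMP14 and MMP16 are membrane-type enzymes fixed to the cell surface. MMP14, also called MT1-MMP, cleaves fibrillar collagen around invading cells and activates the proform of MMP2 in a complex that contains TIMP2. The TIMPs are secreted inhibitors that bind the active site, TIMP3 is held in the matrix by its binding to glycosaminoglycans, and RECK is a membrane-anchored inhibitor. Promoters of several MMP and TIMP genes are known to hold ETS and AP-1 binding sites, and ETV4 is also known under the name PEA3.

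Promoter windows in RefSeq (GRCh38.p14) were matched for 4 of the 10 genes, MMP14, TIMP1, TIMP3 and RECK, each running from 250 bases before the gene start to 50 after it. The other members were not searched, among them the member called higher in the KO libraries without a block. The matches therefore cannot be set against the direction of change. The MMP14 sequence is shown because MMP14 is the most abundant of the enzymes and was lower in the KO libraries, and the TIMP1 stretch because it is a textbook pairing of an AP-1 site with an ETS site. Capitals mark the ETS core GGAA on either strand (TTCC on the reverse), the longer form CCGGAA, and the AP-1 variant TGAGTAA.
MMP14 upstream, chr14:22836335-22836584, plus strand: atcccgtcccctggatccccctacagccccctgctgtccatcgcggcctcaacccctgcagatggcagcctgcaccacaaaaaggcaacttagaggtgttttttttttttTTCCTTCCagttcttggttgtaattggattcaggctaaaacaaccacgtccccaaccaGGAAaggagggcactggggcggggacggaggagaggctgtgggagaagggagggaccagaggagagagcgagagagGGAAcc
MMP14 after the gene start, chr14:22836607-22836634, plus strand: cagaagaaagatcaaaaaCCGGAAaaga
TIMP1 element, chrX:47582330-47582359, plus strand: gtggaTGAGTAAtgcatccaGGAAgcctgg
Over the whole window, GGAA on either strand occurred 5 times in MMP14, 4 times in TIMP1, 2 times in RECK and 1 time in TIMP3, against a median of 3 over 35116 promoter windows, of which 95.5% held it. CCGGAA on either strand was found in MMP14 alone among the 4, overlapping the last of its GGAA matches, and in 17.2% of all windows. TGAGTAA, searched on both strands, was found in TIMP1 alone among the 4, and in 2.57% of all windows. The common AP-1 form TGANTCA, which reads the same on both strands, was found in none of the 4 and in 7.71% of all windows. Gene starts here are those of RefSeq, which for MMP14 and TIMP1 lie downstream of the GENCODE 29 starts used for gene positions below, so the TIMP1 element and the last bases of the MMP14 upstream stretch, its final GGAA included, fall inside these genes as GENCODE bounds them. These are matches of letters and say nothing of binding in these cells.

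Library totals ran from 18042601 to 23232770 counts. Chi-square per degree of freedom was 6.35 between KO replicates 1 and 2 and 4.24 between control replicates 1 and 2, against 19.9 to 21.3 for every pair of a group that held replicate 3, so replicate 3 of both groups stood apart and no pair agreed within sampling noise. ETV1 averaged 142 ± 11.1 CPM (library-scaled counts, with TMM factors) in KO and 223 ± 13.5 CPM in control (SD, n = 3 each, as for all means below). ETV4 averaged 63.7 ± 2.03 CPM in KO and 93.9 ± 2.11 CPM in control. ETV5 averaged 113 ± 1.23 CPM in KO and 112 ± 4.77 CPM in control, so mRNA of 2 of the 3 targeted genes was lower, which does not measure loss of the proteins. Of the genes expected in this line, VIM, EGFR, CD44, KRT8 and KRT18 were abundant, with summed levels of 6304 to 7563 CPM in KO and 7011 to 8821 CPM in control. VIM made up most of these sums, at 5401 ± 564 CPM in KO and 6661 ± 865 CPM in control. None of the 5 passed the test below without a block. With the replicate number as a block VIM was lower in KO (edgeR adjusted p = 1.14e-11). CD44 (8.53e-13), KRT8 (3.76e-06) and KRT18 (5.20e-09) were higher in that fit, and EGFR was not called (0.0784). The blocked fit called 17.2% of all tested genes higher and 16.7% lower. The fibroblast list of 8 genes summed to 11.9 to 14.0 CPM in KO and 13.4 to 13.6 CPM in control, the leukocyte list of 6 to 5.84 to 6.33 CPM in KO and 9.36 to 11.7 CPM in control, and the endothelial list of 5 to 5.89 to 8.46 CPM in KO and 9.73 to 11.1 CPM in control. Of these lists DCN, COL1A2, COL3A1, PTPRC, ITGAM, CDH5 and VWF were each under 1 CPM in every library, but other members were detected. COL1A1 was at 10.1 ± 1.24 CPM in KO and 9.46 ± 0.22 CPM in control, CSF1R at 3.01 ± 0.36 CPM in KO and 2.88 ± 0.54 CPM in control, and KDR at 3.27 ± 0.50 CPM in KO and 3.68 ± 0.17 CPM in control. PDGFRB was at 2.38 ± 0.28 CPM in KO and 3.57 ± 0.06 CPM in control (edgeR adjusted p = 0.0676; 0.0192 with the replicate number as a block). LYZ was at 1.55 ± 0.27 CPM in KO and 6.03 ± 0.25 CPM in control, and PECAM1 at 3.74 ± 0.95 CPM in KO and 6.76 ± 0.63 CPM in control. These were the markers of the 3 lists that passed the test below without a block, which called 6.42% of all tested genes lower. PECAM1 did not pass without KO replicate 1 or control replicate 1 or 2 (edgeR adjusted p of up to 0.105). The part of these shifts in the results was not tested. Of 4 luminal breast genes, ESR1 and PGR had at most 1 read in a library, while GATA3 was at 12.1 ± 0.33 CPM in KO and 9.42 ± 0.65 CPM in control (edgeR adjusted p = 0.0589; 0.00722 with the replicate block) and FOXA1 at 2.38 ± 0.56 CPM in KO and 1.57 ± 0.34 CPM in control (0.195; 0.0562 with the block).

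In KO cells the membrane-type enzyme MMP14 and its partner inhibitor TIMP2 were lower. MMP16, the other membrane-type enzyme among the 10 members, was higher from a far smaller base. The KO level was 0.801 of the control level for MMP14, 0.740 for TIMP2 and 1.83 for MMP16. In bulk RNA, fewer cells that express a gene and less of its RNA per cell cannot be told apart. The secreted collagenase MMP1 and the inhibitors TIMP1, TIMP3 and RECK did not pass the test. Groups were compared with edgeR's quasi-likelihood test over 14704 genes with Benjamini-Hochberg adjustment at 0.05. Of the 10 members, 1 was called higher and 2 lower, 4 did not pass and 3 were not tested. Over all tested genes 9.70% were called, 3.28% higher and 6.42% lower. KO and control CPM did not overlap for 5 of the 7 members tested, against 31.7% of all tested genes (14.9% higher and 16.8% lower). Members and the lists below were chosen with earlier results of these data known, so no excess over these shares can be read from them. With the replicate number as a block, 3 members were called higher (MMP16, MMP1 and TIMP3) and 2 lower, against 33.9% of all tested genes called, 17.2% higher and 16.7% lower. The data matched replicate 3 of the 2 groups by number, but not replicates 1 and 2, which limits every blocked value given here.

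**Figure D1:**
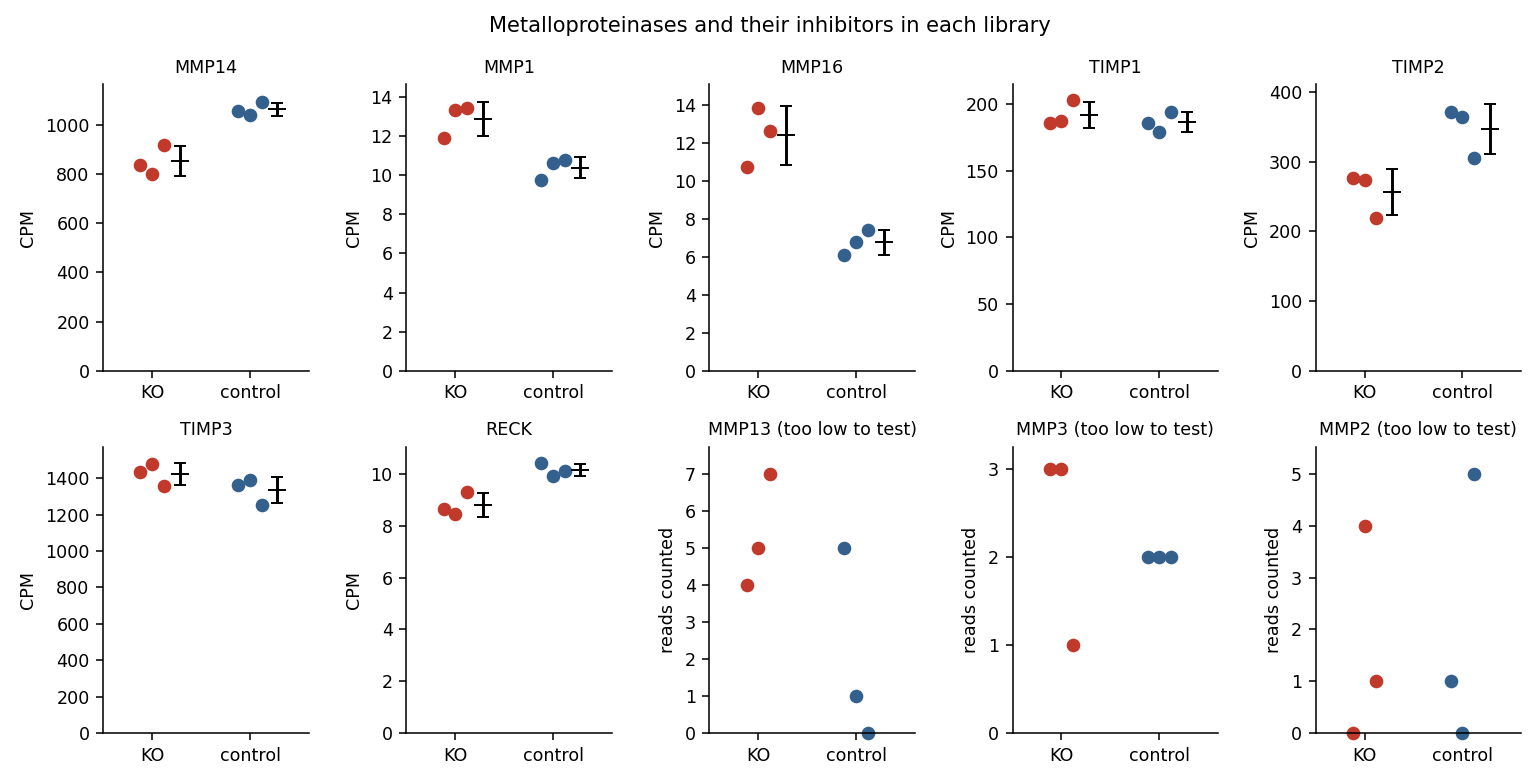
Values of the 10 genes in each library, KO left and control right, as CPM for the 7 tested genes (bars: mean and SD of n = 3) and as reads counted for the 3 that were too low; points run from replicate 1 to 3, left to right. MMP14, TIMP2 and RECK show KO points all below control points, MMP1 and MMP16 show KO points all above them, and TIMP1 and TIMP3 overlap.

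MMP14 (ENSG00000157227, chromosome 14, 22836557 to 22849027, plus strand; IDs and positions here are those of GENCODE 29 on GRCh38) was the enzyme with the most transcripts. It measured 836, 801 and 920 CPM in KO replicates 1, 2 and 3, against 1056, 1041 and 1095 CPM in the controls. The highest KO library lay below the lowest control library, and replicate 3 was the highest of each group. Means were 852 ± 61.0 CPM in KO and 1064 ± 27.7 CPM in control, which is -0.32 on the log2 scale (SE 0.07, adjusted p = 0.0235 by edgeR). The 95% interval of the log2 fold change ran from -0.48 to -0.16. With 3 libraries against 2, MMP14 no longer passed without KO replicate 1 (edgeR adjusted p = 0.106), KO replicate 2 (0.108), control replicate 1 (0.0890) or control replicate 2 (0.0856). The log2 fold change stayed between -0.36 and -0.27 in all 6 such fits.

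TIMP2 (ENSG00000035862, chromosome 17, 78852977 to 78925387, minus strand), which at low dose helps MMP14 to activate pro-MMP2 and at high dose blocks it, had 277, 274 and 219 CPM in KO replicates 1, 2 and 3. The control replicates had 371, 363 and 305 CPM. Here replicate 3 was the lowest library of each group, the opposite of its place for MMP14, and the groups still did not overlap. TIMP2 averaged 257 ± 32.6 CPM in KO and 346 ± 36.3 CPM in control, with a log2 fold change of -0.43 (SE 0.11, 95% interval -0.68 to -0.19, edgeR adjusted p = 0.0395). TIMP2 missed the threshold without KO replicate 1 (adjusted p = 0.0834 by edgeR), KO replicate 2 (0.0899), control replicate 1 (0.149) or control replicate 2 (0.150). Without KO replicate 3 the log2 fold change was -0.31, and without control replicate 3 it was -0.52, and both passed.

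MMP16 (ENSG00000156103, chromosome 8, 88032009 to 88328025, minus strand), also known as MT3-MMP, is a membrane-type enzyme known from nervous tissue and melanoma. It had 10.8, 13.9 and 12.7 CPM in the KO libraries, from 201, 267 and 230 reads. The controls had 6.10, 6.79 and 7.44 CPM, from 129, 126 and 175 reads. Every KO library was above every control library. The means were 12.4 ± 1.56 CPM in KO and 6.77 ± 0.67 CPM in control, which is 0.87 on the log2 scale (SE 0.13, 95% interval 0.57 to 1.18, edgeR adjusted p = 0.00458). MMP16 passed in all 6 fits with 1 library left out, with edgeR adjusted p of at most 0.0287.

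MMP1 (ENSG00000196611, chromosome 11, 102789920 to 102798160, minus strand), the interstitial collagenase that makes the first cut in collagen I, had 11.9, 13.3 and 13.4 CPM in KO and 9.78, 10.6 and 10.8 CPM in control. The groups did not overlap, but the log2 fold change of 0.31 (SE 0.10) had an edgeR adjusted p of 0.0954, and its unadjusted 95% interval ran from 0.08 to 0.54. With the replicate number as a block the edgeR adjusted p was 0.0154. The 3 KO libraries together held 723 MMP1 reads and the 3 control libraries 658.

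**Figure D2:**
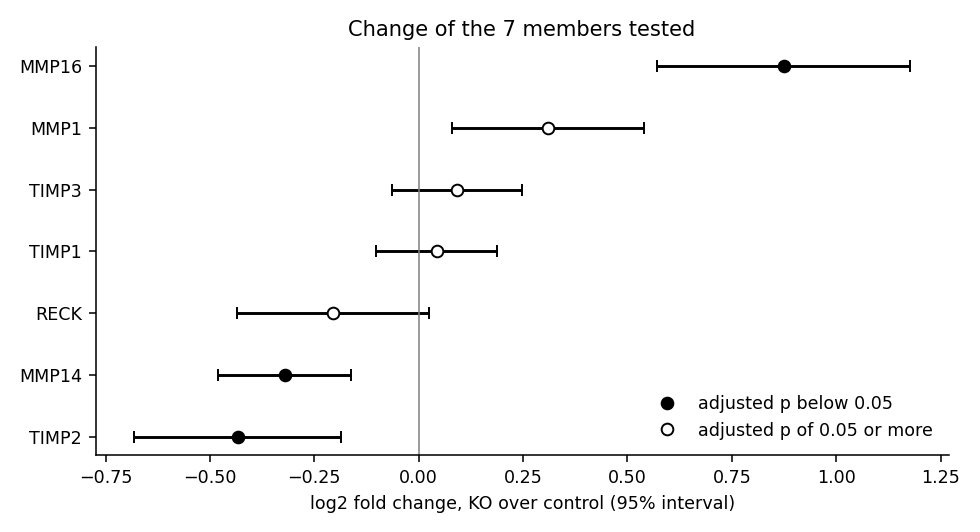
Log2 fold change of the 7 tested genes, KO over control, with unadjusted 95% intervals from the edgeR fit; filled points have an adjusted p below 0.05. MMP16 at 0.87, MMP14 at -0.32 and TIMP2 at -0.43 are filled, and the intervals of TIMP1, TIMP3 and RECK cross 0.

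TIMP3 (ENSG00000100234, chromosome 22, 32801701 to 32863043, plus strand), the matrix-bound inhibitor, had 1433, 1478 and 1356 CPM in KO and 1361, 1389 and 1253 CPM in control, and the groups overlapped. Its log2 fold change was 0.09 (SE 0.07, 95% interval -0.06 to 0.25, edgeR adjusted p = 0.453). With the replicate block, where replicate 3 was set against replicate 3, the edgeR adjusted p was 0.0190 at the same fold change of 0.09. TIMP1 (ENSG00000102265, chromosome X, 47582313 to 47586789, plus strand), an inhibitor of most secreted MMPs and a weak one of membrane-type MMPs, had 186, 187 and 203 CPM in KO and 186, 179 and 194 CPM in control. For TIMP1 the log2 difference was 0.04 ± 0.06 SE (edgeR adjusted p = 0.740), and its 95% interval, from -0.10 to 0.19, leaves out a change of the size measured for TIMP2.

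RECK (ENSG00000122707, chromosome 9, 36036433 to 36124451, plus strand), the membrane-anchored inhibitor that restrains MMP14 among others, had 8.62, 8.46 and 9.30 CPM in KO and 10.4, 9.91 and 10.1 CPM in control. The groups did not overlap, yet RECK did not pass (log2 fold change -0.21, SE 0.10, 95% interval -0.44 to 0.02, edgeR adjusted p = 0.247). In none of the 15 alternative fits did RECK pass; the lowest adjusted p among them was 0.150.

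MMP2, MMP3 and MMP13 could not be judged. MMP2 (ENSG00000087245, chromosome 16) had 0, 4 and 1 reads in KO and 1, 0 and 5 in control, so the gelatinase that MMP14 and TIMP2 are known to activate was close to undetected in these cells. Pooled over a group, MMP2 was at 0.0891 CPM in KO (exact Poisson 95% interval 0.0289 to 0.208) and 0.0949 CPM in control (0.0348 to 0.206). MMP3 (ENSG00000149968, chromosome 11) had 3, 3 and 1 reads in KO and 2 in each control library. MMP13 (ENSG00000137745, chromosome 11) had 4, 5 and 7 reads in KO and 5, 1 and 0 in control. The KO over control ratio of pooled MMP13 reads was 3.01 with an exact binomial 95% interval from 1.12 to 9.38, which covers counting error alone; in an edgeR fit with no filter on low counts MMP13 had an adjusted p of 0.439. The ratio was 0.939 for MMP2 (0.227 to 3.69) and 1.32 for MMP3 (0.378 to 4.74), which leaves room for a change of several fold in either direction. A count of 0 in 1 library allows up to 3 reads, or 0.128 to 0.165 CPM.

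Set per kilobase of exon (GENCODE 29 gene models), transcript levels ran in the order TIMP3, MMP14, TIMP1, TIMP2, MMP1, RECK and MMP16 in both groups, and the ranges of neighbours in this order did not overlap in either group. TIMP3 was at 309 ± 13.4 CPM per kilobase in KO and 290 ± 15.6 in control. MMP14 was at 191 ± 13.7 CPM per kilobase in KO and 238 ± 6.22 in control. TIMP1 was at 125 ± 6.35 CPM per kilobase in KO and 121 ± 4.98 in control. After TIMP2, with 45.5 ± 5.79 CPM per kilobase in KO and 61.5 ± 6.45 in control, the next gene, MMP1, was 6.96-fold lower in KO and 11.7-fold lower in control. The 3 lowest genes, MMP13, MMP3 and MMP2, lay below MMP16 with no overlap, and neighbours among these 3 overlapped in both groups. With the longest coding transcript as the length, TIMP3 and MMP14 overlapped in control, at a ratio of 1.02, and stayed apart in KO, at 1.35.

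**Figure D3:**
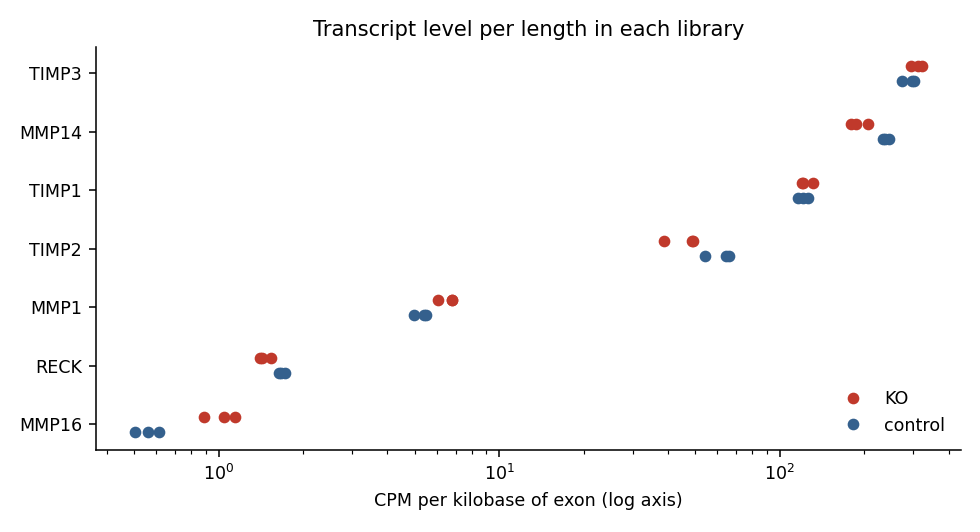
Level of the 7 tested genes as CPM per kilobase of exon on a log axis, KO above control for each gene, 1 point per library. TIMP3 and MMP14 lie above 100, while MMP16 lies at 1.03 on average in KO and 0.56 in control.

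Within each library, MMP14 made up nearly all of the summed level of the 6 enzymes per kilobase, 95.7% to 96.4% in KO and 97.5% to 97.7% in control. MMP1 made up 3.10% to 3.61% of that sum in KO and 2.05% to 2.25% in control. The share of MMP16 was 0.457% to 0.610% in KO and 0.208% to 0.244% in control. All 3 shares differed between the groups with no overlap, and no test was run on them. They are parts of 1 sum, so a lower MMP14 level by itself raises the other 2 shares.

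The sum of TIMP1, TIMP2 and TIMP3 per kilobase was 479 ± 13.1 in KO and 472 ± 17.2 in control and overlapped. Within it TIMP2 held 8.35% to 10.2% in KO and 11.96% to 13.7% in control, while TIMP3 held 63.3% to 65.4% in KO and 60.2% to 62.5% in control. These too are parts of 1 sum, so a lower TIMP2 level by itself raises the share of TIMP3. The ratio of MMP14 to TIMP3 was 0.602, 0.559 and 0.699 in KO replicates 1, 2 and 3 and 0.800, 0.773 and 0.901 in the controls, with no overlap. The ratio of MMP14 to TIMP2 was 3.82, 3.69 and 5.30 in KO and 3.59, 3.62 and 4.53 in control and overlapped, with replicate 3 the highest of each group. These are ratios of mRNA, not of protein or of enzyme activity.

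The rest of the enzyme family was low. Of 17 other MMP genes, 12 were too low to test, and MMP12, MMP20 and MMP27 had no read in any library. Of the 5 tested, MMP11, a stromelysin activated inside the cell by furin, was lower, with 2.27 ± 0.38 CPM in KO and 4.08 ± 0.39 CPM in control (log2 difference -0.85 ± 0.19 SE, edgeR adjusted p = 0.0236). The share called lower over all tested genes was 6.42%. MMP11 did not pass without KO replicate 1 or 2 or control replicate 1, 2 or 3 (edgeR adjusted p of up to 0.104). MMP15, a further membrane-type enzyme, was at 6.97 ± 0.86 CPM in KO and 5.47 ± 0.36 CPM in control without passing (edgeR adjusted p = 0.150, and 0.0473 with the replicate block). That block called 17.2% of all tested genes higher. Per kilobase of exon MMP15 was at 1.58 in KO and 1.24 in control, above MMP16 at 1.03 and 0.56. MMP19, at 5.74 ± 0.83 CPM in KO and 7.03 ± 0.78 CPM in control (edgeR adjusted p = 0.273), and MMP28, at 1.47 ± 0.69 CPM in KO and 1.08 ± 0.19 CPM in control (edgeR adjusted p = 0.514), did not pass, nor did MMP24, which was under 1 CPM in every library. The gelatinase MMP9 and the matrilysin MMP7 had at most 1 read in a library.

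Among 6 other genes with known inhibitory or regulatory effect on MMPs, 4 were tested, 2 were higher and 2 did not pass. Over all tested genes 3.28% were higher. The median log2 fold change was 0.24, against 0.00 over all tested genes, but no gene lay near it. The 2 higher genes were at 0.81 and 0.86 and the other 2 at -0.32. TFPI2, a Kunitz-type inhibitor of the matrix, had 80.7 ± 6.52 CPM in KO and 46.1 ± 2.93 CPM in control (log2 difference 0.81 ± 0.08 SE, edgeR adjusted p = 5.45e-04). The proteoglycan testican-1, SPOCK1, had 3.75 ± 0.30 CPM in KO and 2.05 ± 0.47 CPM in control (log2 difference 0.86 ± 0.21 SE, edgeR adjusted p = 0.0344) and failed to pass when any 1 of the 6 libraries was left out (edgeR adjusted p of 0.0515 to 0.120). TIMP4 had 5.84 ± 0.35 CPM in KO and 7.31 ± 0.31 CPM in control (edgeR adjusted p = 0.132). SPOCK3 had 3.87 ± 0.18 CPM in KO and 4.83 ± 0.80 CPM in control (edgeR adjusted p = 0.262). Both were lower in KO with no overlap of the groups, as were 16.8% of all tested genes.

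Of 9 tested genes that activate pro-MMPs, 2 were lower and 7 did not pass (median log2 fold change -0.07). Over all tested genes 6.42% were lower. The 2 lower genes were PLAU, which encodes urokinase, the protease that makes plasmin, with 289 ± 10.2 CPM in KO and 413 ± 32.9 CPM in control, and its receptor PLAUR, with 123 ± 2.60 CPM in KO and 151 ± 4.58 CPM in control. PLAUR (log2 difference -0.30 ± 0.06 SE, edgeR adjusted p = 0.0126) did not pass without KO replicate 1 or 2 or control replicate 1 or 2, leaving PLAU (log2 difference -0.51 ± 0.07 SE, edgeR adjusted p = 0.00343). FURIN, the convertase that removes the prodomain of membrane-type MMPs, was at 53.3 ± 3.47 CPM in KO and 50.1 ± 3.19 CPM in control (edgeR adjusted p = 0.524), and plasminogen, PLG, had no read.

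Genes that carry MMP14 to the surface or dock MMPs there mostly did not pass. Of 19, 2 were lower and 17 were not called (median log2 fold change -0.01), against 6.42% lower over all tested genes. With the replicate block 3 were lower and 3 higher, against 16.7% and 17.2% of all tested genes. The integrin subunit ITGB3, a docking partner for MMP2 together with ITGAV, had 2.17 ± 0.05 CPM in KO and 5.85 ± 0.55 CPM in control (log2 difference -1.43 ± 0.15 SE, edgeR adjusted p = 7.93e-04). The tetraspanin CD151 had 234 ± 6.28 CPM in KO and 277 ± 4.28 CPM in control (log2 difference -0.25 ± 0.06 SE, edgeR adjusted p = 0.0279) and passed in 1 of the 6 fits with a library left out, the fit without KO replicate 3.

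Collagen receptors and uptake receptors gave 3 lower genes of 8 tested, against 6.42% of all tested genes, in a list chosen with earlier results known. The other 5 did not pass (median log2 fold change of the list -0.28). All 3 lower genes passed in each of the 6 fits with a library left out. With the replicate block 4 were lower, against 16.7% of all tested genes. The collagen uptake receptor MRC2 joined the 3, at 46.5 ± 3.43 CPM in KO and 55.7 ± 2.29 CPM in control (edgeR adjusted p = 0.0609, and 1.22e-04 with the block). The collagen-binding integrin subunit ITGA10 had 31.7 ± 6.32 CPM in KO and 61.6 ± 3.17 CPM in control (log2 difference -0.96 ± 0.13 SE, edgeR adjusted p = 0.00330). The discoidin receptor DDR1, a collagen-activated kinase, had 35.5 ± 3.20 CPM in KO and 51.9 ± 0.70 CPM in control (log2 fold change -0.55, SE 0.08). The third was LRP1, a receptor that clears MMPs and TIMPs from outside the cell, with 26.5 ± 2.62 CPM in KO and 38.3 ± 0.90 CPM in control (log2 fold change -0.53, SE 0.08).

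Of 16 transcription factors known at MMP promoters, 1 was higher, 2 were lower and 13 did not pass (median log2 fold change -0.01). Over all tested genes 3.28% were higher and 6.42% lower. With the replicate block 3 of the 16 were higher and 4 lower, against 17.2% and 16.7% of all tested genes. RUNX2, which drives MMP13 in bone cells, had 55.8 ± 0.34 CPM in KO and 37.0 ± 1.45 CPM in control (log2 difference 0.59 ± 0.06 SE, edgeR adjusted p = 7.26e-04). The AP-1 subunit JUN had 211 ± 28.01 CPM in KO and 306 ± 22.2 CPM in control (log2 difference -0.54 ± 0.10 SE, edgeR adjusted p = 0.0118) and did not pass without KO replicate 1 or KO replicate 2. The ETS factor ELK3 had 172 ± 7.29 CPM in KO and 205 ± 9.86 CPM in control (edgeR adjusted p = 0.0381) and passed with a library left out only without control replicate 3. The AP-1 partners FOS and FOSL1 were not called, at 693 ± 96.7 and 375 ± 15.7 CPM in KO and 700 ± 28.5 and 389 ± 28.5 CPM in control.

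**Figure D4:**
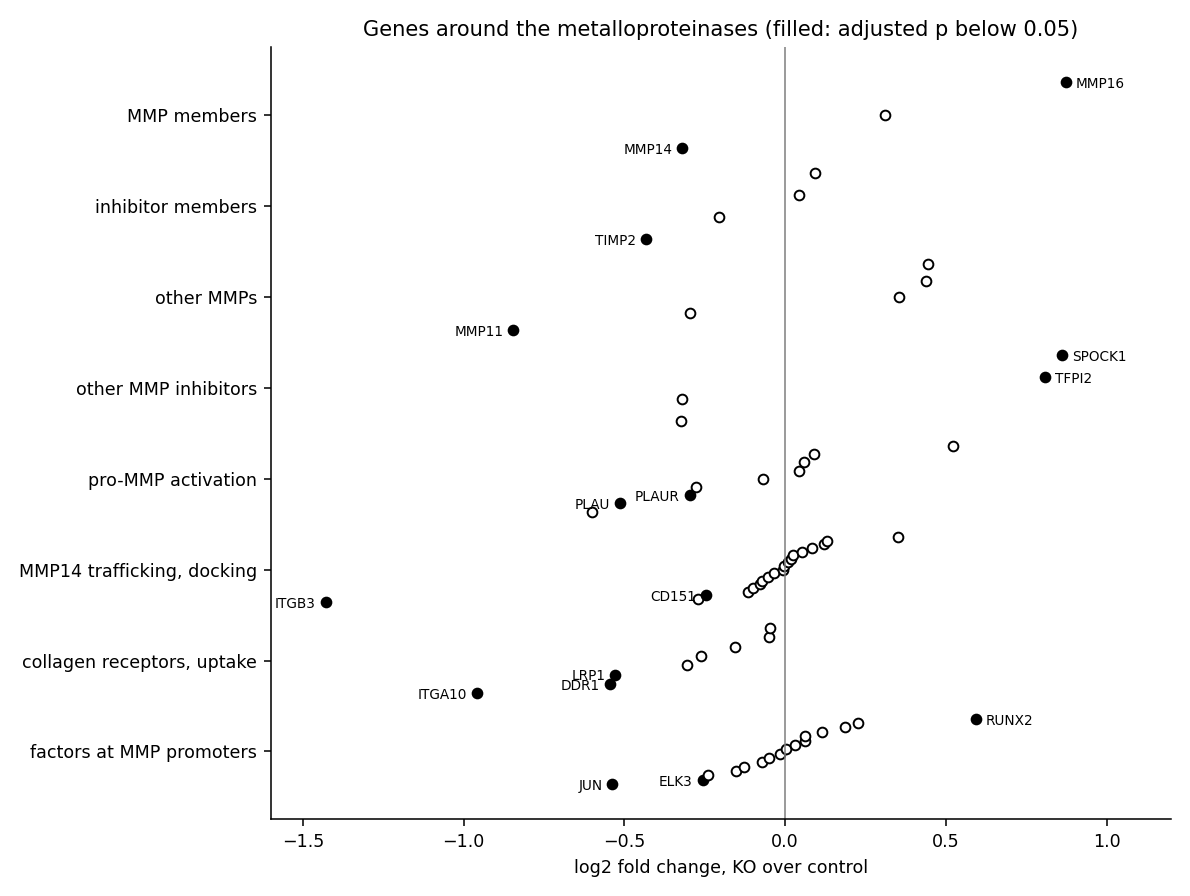
Log2 fold change, KO over control, of every tested gene in the 8 groups described, 1 point per gene; genes with an edgeR adjusted p below 0.05 are filled and named. MMP16, TFPI2, SPOCK1 and RUNX2 are the filled points to the right of 0, and ITGB3 at -1.43 lies farthest to the left.

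The genes whose profile over the 6 libraries was closest to that of MMP14, by Pearson's r of log2 CPM among 10808 genes with a mean of at least 5 CPM, were ENSG00000226332, which the table lists without a symbol (r = 0.998), the cyclin gene CCNA1 (0.997) and the adaptor gene SH3BP2 (0.995). For TIMP3 they were RAD18 (0.998), MKKS (0.997) and ASCC3 (0.997). With 6 libraries such values are common: 261 genes reached 0.95 with MMP14 and 282 with TIMP3, and all values come from the same 6 libraries.

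**Figure D5:**
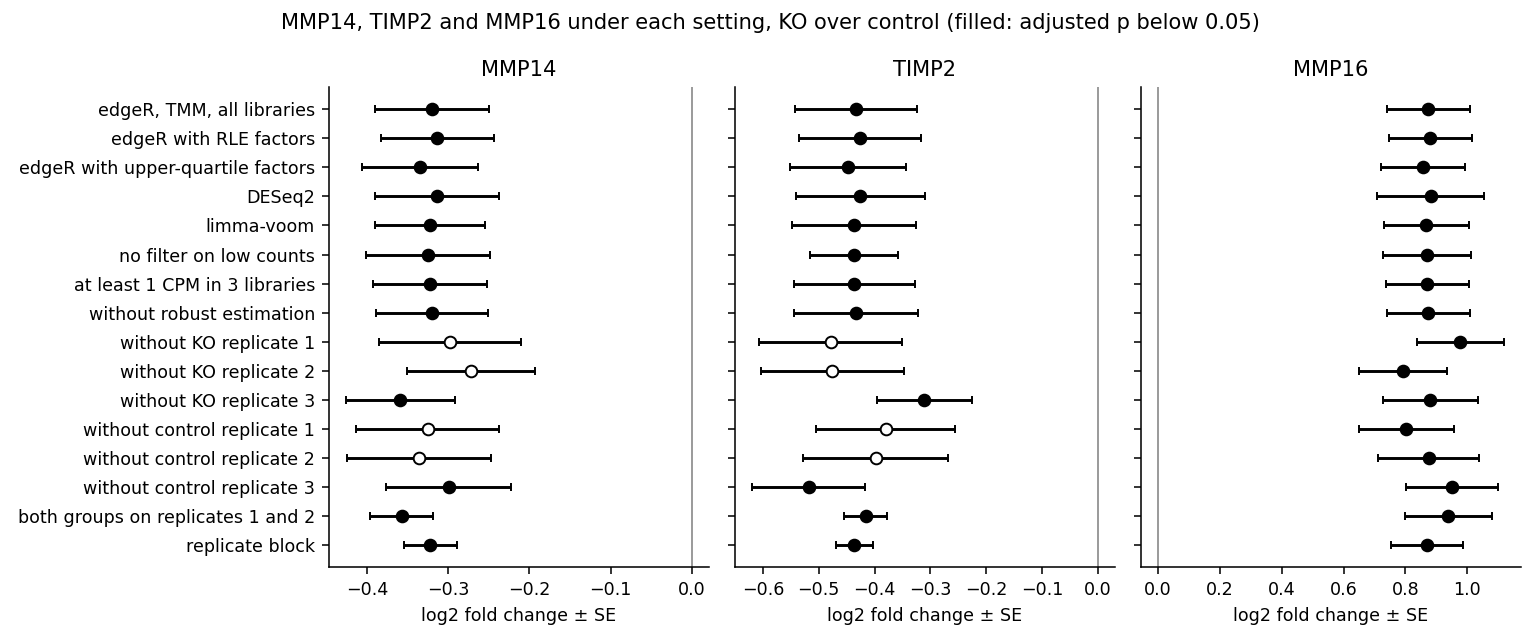
Log2 fold change ± SE of MMP14, TIMP2 and MMP16, KO over control, under the edgeR fit reported and each alternative; filled points have an adjusted p below 0.05. MMP16 is filled throughout, while MMP14 and TIMP2 are open without replicate 1 or 2 of either group.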

How the data were processed

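Polyadenylated RNA of 6 libraries was measured as gene counts. The build was hg38 and the reads passed through STAR 2.7.9a, featureCounts, FastQC 0.11.9 and R 4.1.1, per the submitters' processing notes; strand setting, annotation and multi-mapping rule: not given in the sources used here. The deposited table holds raw counts. Annotated genes that overlap the members on either strand and were found in the table by name (5) had at most 7 reads in a library. Members and lists were chosen with earlier results of these data known.

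Genes were filtered with filterByExpr, scaled with TMM factors and tested with edgeR 4.0.16 (glmQLFit, robust, and glmQLFTest) in R 4.3.3, group as the single term, Benjamini-Hochberg over all genes. The replicate number was left out of this fit because the labels state no pairing, and it entered an alternative fit. SE is the log2 fold change over the root of the F statistic. Members outside the filter got exact Poisson and binomial intervals (scipy 1.17.1). Alternatives used limma 3.58.1 and DESeq2 1.42.0. Intervals and floors cover counting error only. The procedure was tested on simulated counts. The promoter of MMP16 was left out of the search, which does not mean that it lacks a window or a match. Named genes are the members, the targeted genes, other MMPs, up to 2 called genes per direction in each list, and the 3 closest profiles to the most abundant enzyme and inhibitor. Listed genes named without passing (TIMP4, SPOCK3, FURIN, PLG, FOS, FOSL1, MRC2), and LRP1, called in its list beyond those 2, were chosen after their values were seen.

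Same-numbered KO and control replicates deviated from their group means together (Pearson's r 0.546, 0.450 and 0.828 over 10032 genes), each above 0.1. The number was therefore used as a block in an alternative fit. This comes from the data, not the labels, and replicates 1 and 2 correlated more with the other number across groups (0.592 and 0.584). Since replicate 3 stood apart in both groups, replicates 1 and 2 deviate together whatever their numbers. The values thus match only replicate 3 by number, and cannot show how replicates 1 and 2 pair.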

Additional observations from a re-analysis of the deposited data

How the results depend on the processing

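Each tested member kept its direction in all 15 alternative fits (RLE or upper-quartile factors, DESeq2, limma-voom, other filters, no robust estimation, each library left out, replicates 1 and 2 alone, replicate block). With the replicate block, 3 members were higher, as MMP1 and TIMP3 joined MMP16, and over all genes 2522 were higher and 2461 lower; the block changed no other member's call. On replicates 1 and 2 of both groups, 1731 genes were higher and 2023 lower. With 1 library left out, genes higher ranged from 136 to 777 and genes lower from 436 to 964, against 483 and 944 with all libraries, and members lower ranged from 0 (without replicate 1 or 2 of either group) to 2 (without replicate 3 of either group). The lowest counts over all genes came without control replicate 2 and the highest without KO replicate 3; the cause was not tested. Low counts limit what can be said of MMP2, MMP3 and MMP13.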

Other observations

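Reads of some MMP genes too low to test were uneven between libraries of the same group. Whether the unevenness exceeded counting error was not tested. MMP10, a stromelysin, had 0, 1 and 6 reads in KO replicates 1, 2 and 3 and 0, 3 and 8 reads in control replicates 1, 2 and 3. MMP25, a membrane-type enzyme known from neutrophils, had 0, 2 and 2 reads in KO and 2, 3 and 13 reads in control.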
